A study of Mus musculus with 4 samples.

Results

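The proteasome genes of mouse embryonic stem (ES) cells were examined with and without leukemia inhibitory factor (LIF), a cytokine that keeps these cells undifferentiated. Genes were taken by name, as those whose symbol begins with Psm, a letter from a to g and a digit, and which had at least 1 probe set annotated to that symbol alone. This gave 49 of 18193 genes, with 103 probe sets between them, and each gene was represented by its brightest probe set (by mean log2 signal). The transcripts had been measured in CGR8 cells, an established mouse ES cell line, on 4 Affymetrix arrays. On 2 of them was RNA of cells whose medium had been replaced by medium without LIF, and on the other 2 RNA of cells kept with LIF, after 2 days in each case. All cells had been maintained before on gelatin in serum replacement medium with LIF at 1000 U/ml, and the labels name no genetic change in either group. The labels number the arrays of a group 1 and 2 without saying that they came from separate cultures. The p-values therefore rest on a spread between arrays that need not be a spread between independent cultures.

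The proteasome is the protease that degrades proteins tagged with ubiquitin. Its barrel-shaped 20S core has outer rings of alpha subunits and inner rings of beta subunits, and the beta subunits encoded by Psmb5, Psmb6 and Psmb7 carry the active sites. The 19S cap sits on the barrel, where its ATPases unfold the substrate and its other subunits bind the ubiquitin chain and remove it. In cells of the immune system, and in other cells given interferon, Psmb8, Psmb9 and Psmb10 take the places of the constitutive catalytic subunits and form the immunoproteasome, which cuts peptides for MHC class I molecules. ES cells are known for high proteasome activity.

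The 49 genes comprised 14 of the core rings, 17 of the cap, 3 of the immunoproteasome, 2 tissue-specific core subunits, 4 other activators and inhibitors, 7 assembly chaperones and 2 with other functions. Psmb11, a core subunit of the thymus, read 20.3 and 42.6 without LIF and 4.2 and 21.6 with LIF. Its mean lay below the filter on dim probe sets, a signal of 22.9, so that 48 of the 49 were tested. Psme2, which encodes the partner of Psme1, is not reported, since its probe set was annotated to a further gene as well.

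The promoters of the immunoproteasome genes are shown because these genes had the largest mean differences among the tested genes with a Psm name, together with that of Psmb5, whose product the Psmb8 product replaces. The sequences are RefSeq's on assembly GRCm38.p6, each from 250 bases before to 50 bases after the gene's start, 5′ to 3′ on the gene's own strand. Capitals mark matches, on either strand, to the motif TTCNNNGAA (the gamma-activated site bound by STAT proteins), GAAA, any 2 bases, GAAA (a core of interferon response elements), TGACNNNGC (the antioxidant response element read by Nfe2l1 and Nfe2l2) or CCAAT (the NF-Y box), of which none overlapped another here.
Psmb8 (chr17:34197945-34198244, plus strand): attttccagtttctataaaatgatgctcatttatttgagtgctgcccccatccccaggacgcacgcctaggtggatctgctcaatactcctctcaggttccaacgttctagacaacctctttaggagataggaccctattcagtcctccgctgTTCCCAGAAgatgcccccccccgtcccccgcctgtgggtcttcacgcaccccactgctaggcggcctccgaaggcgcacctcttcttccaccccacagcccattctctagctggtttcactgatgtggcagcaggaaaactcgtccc
Psmb9 (chr17:34187281-34187580, minus strand): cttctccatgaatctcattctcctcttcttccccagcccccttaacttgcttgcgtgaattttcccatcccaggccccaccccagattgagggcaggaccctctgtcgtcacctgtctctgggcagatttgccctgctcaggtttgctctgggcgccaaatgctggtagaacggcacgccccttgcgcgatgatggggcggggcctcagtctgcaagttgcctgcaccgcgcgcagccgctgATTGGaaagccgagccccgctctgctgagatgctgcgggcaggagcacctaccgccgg
Psmb10 (chr8:105938343-105938642, minus strand): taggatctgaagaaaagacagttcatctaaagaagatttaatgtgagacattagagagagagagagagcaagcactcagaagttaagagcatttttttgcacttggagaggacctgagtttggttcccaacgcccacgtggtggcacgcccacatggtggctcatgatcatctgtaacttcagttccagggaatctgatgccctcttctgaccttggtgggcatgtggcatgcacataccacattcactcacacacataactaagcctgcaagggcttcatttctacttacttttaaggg
Psmb5 (chr14:54617946-54618245, minus strand): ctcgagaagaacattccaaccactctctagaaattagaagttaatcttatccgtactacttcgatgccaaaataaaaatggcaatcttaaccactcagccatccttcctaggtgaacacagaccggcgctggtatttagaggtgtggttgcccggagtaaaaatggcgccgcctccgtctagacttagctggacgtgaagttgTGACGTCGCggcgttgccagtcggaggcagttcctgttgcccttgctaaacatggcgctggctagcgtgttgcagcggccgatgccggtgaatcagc
The Psmb8 window held TTCCCAGAA, a match to the STAT motif, from 97 to 89 bases before the start, and that motif occurred in 8.30% of all 32851 promoters of the table. The Psmb9 window held 1 reversed CCAAT from 8 to 4 bases before the start, the Psmb10 window no match, and the Psmb5 window TGACGTCGC from 47 to 39 bases before the start. For each of these genes the start used is the gene's outer end in RefSeq's gene table. Promoters of 41 of the 49 genes were in the table. The STAT motif was in 0 of 12 core promoters, in 1 of 15 cap promoters (Psmd2) and in that of the chaperone gene Psmg1. CCAAT was present in 6 of 12 core promoters, in 4 of 15 cap promoters (26.7%) and in 37.4% of all promoters. The interferon element core was in 1 core promoter (Psmb3), 1 cap promoter (Psmd4), those of Psmd9, Psme1 and Psmg4, and 3.44% of all. The TGACNNNGC motif was in 2 of 12 core promoters, in 2 of 15 cap promoters and in 12.4% of all. The search by gene left out 1 chromosome, so the genes named outside core and cap may not be all of those with a match. A match is a description of these letters and says nothing of binding.

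As whole arrays, the 4 differed in the middle of their range, although the authors' scaling gave them like means. Median signals were 95.5 and 65.5 without LIF and 69.9 and 59.6 with LIF. Actb, read at its 3′ and 5′ ends to judge RNA integrity, gave a ratio of 1.44 and 1.77 without LIF and of 1.32 and 1.83 with LIF, lower on the arrays numbered 1 in both groups. Primitive endoderm markers also followed the array number, with summed signals of 1179.5 and 6288 without LIF and 819 and 2913 with LIF. Over the 14445 tested genes the median log2 difference, without LIF minus with LIF, was 0.09. It was 0.02 with quantile normalization and -0.20 with arrays scaled to a common median, so small differences of the proteasome genes are given with this shift beside them. The LIF target Socs3, an inhibitor of the LIF receptor's signal, read 360.0 and 261 without LIF and 4827 and 6198 with LIF, which bears out the labels. Pou5f1, the defining ES cell factor Oct4, was bright on all arrays, at 7212 and 10632 without LIF and 9035 and 8246 with LIF. Of 5 ES cell markers 0 passed, but 3 had groups apart on the lower side: Nanog (log2 difference -1.41), Zfp42 (-1.38) and Sox2 (-0.52). Their part in the differences of the proteasome genes was not tested.

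At a limma adjusted p of 0.05, 0 of the 48 proteasome genes passed, and 0.145% of all tested genes did. At an unadjusted p of 0.05 there were 3 of 48 (Psmb8, Psmb10 and Psmd7), against 10.9% of all tested genes. By the plainer measure of groups that do not overlap, 6 of the 48 had both arrays without LIF above both with LIF and 18 had both below. Over all tested genes these shares were 27.3% and 15.2%. Core and cap, which are bright, made up 31 of the 48, with 1 on the higher side and 14 on the lower. Of the 1495 tested genes in their signal range, 159 were apart on the higher side and 413 (27.6%) on the lower. The 6 proteasome genes on the higher side were Psmb8 and Psmb10, and by smaller margins Psma7, Psme1, Psmg3 and Psmg4, whose sign turned with a common median. Most of the 18 on the lower side belonged to the cap.

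**Figure D1:**
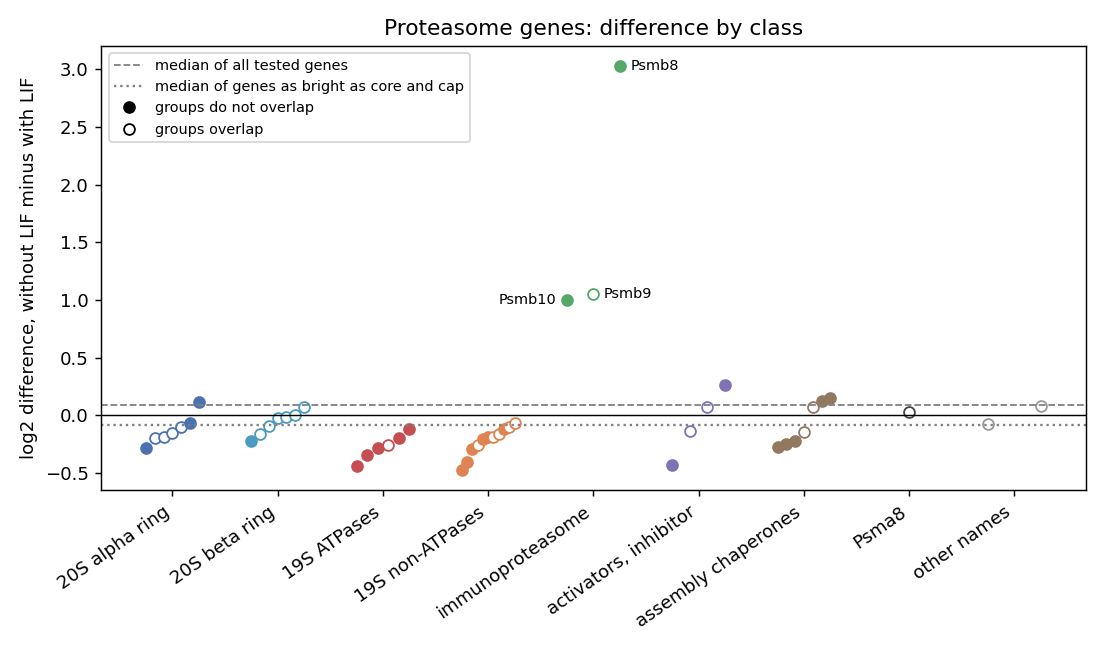
Log2 difference, without LIF minus with LIF, of each tested proteasome gene (points) by class, filled where the arrays of the groups do not overlap and open where they do. The dashed line is the median of all tested genes, 0.09, and the dotted line that of the genes in the signal range of core and cap, -0.08. All 17 cap subunits with a Psm name lie below 0 (16 with quantile normalization), and some turned with other choices of probe set. The 3 immunoproteasome subunits lie between 1.00 and 3.03.

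Mean log2 signals of all 3 immunoproteasome subunits were higher without LIF, with the groups apart for Psmb8 and Psmb10. Their log2 differences were 1.00 to 3.03 as deposited, 0.75 to 2.69 with quantile normalization and 0.71 to 2.73 with a common median. Those of the constitutive subunits they replace were -0.16 to 0.004 as deposited, -0.07 to 0.09 with quantile normalization and -0.46 to -0.29 with a common median, where the median of all tested genes was -0.20. Psmb10, which takes the trypsin-like site, read 1510.4 and 1897 without LIF and 771 and 928 with LIF. Both arrays without LIF lay clear above both with LIF. The means were 1704 ± 273 without LIF and 849.5 ± 111 with LIF (SD, n = 2), a log2 difference of 1.00 (2.00-fold, SE 0.22), with a 95% interval from 0.49 to 1.51. The adjusted p over all genes was 0.14 in limma, so Psmb10 did not pass. Without array 1 of the cells without LIF it passed, with a log2 difference of 1.16 and a limma adjusted p of 0.041, as did 1.23% of all tested genes as higher and 0.865% as lower.

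Psmb8, which takes the chymotrypsin-like site, read 143.6 and 187 without LIF and 36.7 and 11.0 with LIF. The groups did not overlap, but one array with LIF lay below the filter of 22.9 and the other not far above it. The mean log2 signal of the arrays with LIF alone lay below the filter, so Psmb8 was tested only through its level without LIF. Its p-values and its place in counts of tested genes carry this limit. The log2 difference was 3.03 (8.16-fold, SE 0.68, limma adjusted p = 0.16), with an interval from 1.41 to 4.64, and its size is uncertain because the level with LIF is at the dim end of the scale. With arrays scaled to a common median Psmb8 passed (log2 difference 2.73, limma adjusted p = 0.033), as did 0.332% of all tested genes as higher and 0.575% as lower. A second probe set of Psmb8, below the filter, had a log2 difference of 0.50 with overlapping groups.

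Psmb9, which takes the caspase-like site, read 103.6 and 147.6 without LIF and 31.0 and 114.1 with LIF. Array 2 with LIF lay between the arrays without LIF, so the groups overlapped. The log2 difference was 1.06 (SE 0.66, limma adjusted p = 0.61), and its interval, from -0.51 to 2.62, includes 0. With single arrays left out the Psmb9 difference ran from 0.12 (without array 1 with LIF) to 2.00 (without array 2 with LIF), so its size rests on which of these arrays is kept. The median over the 3 genes was 1.06, and 2.00 without array 2 with LIF, while the median over all tested genes was 0.09. Psmb8 and Psmb9 are dim, with mean log2 signals of 5.84 and 6.42, and no comparison with genes of like signal was made. Of the 48 genes, 2 were at least 2-fold higher without LIF with groups apart, Psmb8 and Psmb10, and 0 were at least 2-fold lower. The shares of all tested genes were 7.36% and 2.12%. Of these 2 genes, Psmb8 passed the filter only through its level without LIF. Psmb10 stands at the edge of that fold, with log2 differences of 0.98 with quantile normalization and 0.71 with a common median.

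Psmb5, of the chymotrypsin-like site, read 7736 and 9923 without LIF and 8329 and 9500.0 with LIF (log2 difference -0.02, interval -0.47 to 0.43). Psmb6, of the caspase-like site, read 11302 and 15345 without LIF and 13407 and 16229 with LIF (-0.16, interval -0.66 to 0.33). Psmb7, of the trypsin-like site, read 14474 and 20122 without LIF and 13590.2 and 21314 with LIF (0.004, interval -0.62 to 0.63). For each of them the groups overlapped, and array 2 was the brighter one in both groups. Each interval still reaches 0.33 or more in either direction, so the data do not show that these genes were unaffected. The sign for Psmb5 turned with quantile normalization, and that for Psmb7 with a common median. The Psmb6 difference was -0.38 without array 2 of the cells without LIF.

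**Figure D2:**
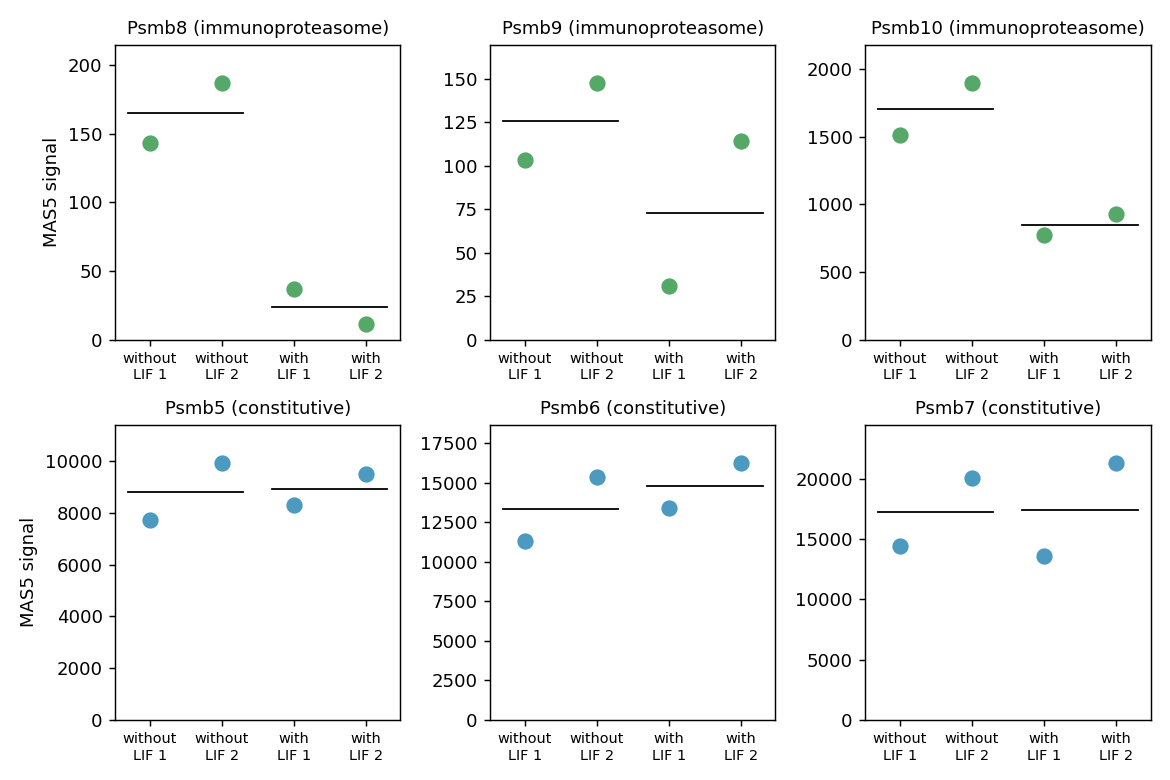
MAS5 signal (linear axis from 0, a separate axis for each gene) of the immunoproteasome subunits in the upper row and of the constitutive catalytic subunits in the lower row. Points are arrays, those without LIF left of those with LIF, and lines are group means; Psmb8 and Psmb10 separate the groups, while Psmb9 and the constitutive subunits do not.

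The immunoproteasome genes have immune cell genes and interferon targets as usual company, and both were measured here. Of 5 immune cell markers, 3 (Ptprc, Aif1 and Cd3e) had a mean below the filter. Ptprc, the defining surface protein CD45, read 41.4 and 24.0 without LIF and 28.3 and 7.8 with LIF. Aif1 read 14.9 and 33.0 without LIF and 2.6 and 5.8 with LIF, higher on both arrays without LIF, while Cd3e and Laptm5 were lower on both and Cd74 overlapped. The summed signal of the 5 was 579.5 and 348 without LIF and 532 and 546 with LIF, without separation of the groups. Most of that sum was Laptm5, at 356 and 202 without LIF and 429 and 406 with LIF. The other 4 summed to 223 and 145.6 without LIF and 103.5 and 139.8 with LIF, narrowly apart. The part of such cells in the result was not tested. The 6 fibroblast markers summed to 858 and 448 without LIF and 607 and 277 with LIF. The matrix proteoglycans Dcn and Lum were higher on both arrays without LIF, Dcn at 172 and 151.3 without LIF and 67.3 and 53.1 with LIF, and Lum, below the filter, at 43.9 and 23.3 without LIF and 18.5 and 3.0 with LIF. For Col1a1, Col1a2, Col3a1 and Thy1 the groups overlapped. The part of fibroblasts was not tested either. In bulk RNA, more cells expressing a gene and more RNA in each cell cannot be told apart.

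Genes of interferon response and antigen processing lay on the same side as the immunoproteasome. Of 13 listed genes 11 were tested, 0 passed over all genes and 6 had an unadjusted p of 0.05 or less in limma. All 11 differences were positive as deposited, 9 with groups apart and 0 lower, and their median was 0.67, against 0.09 over all tested genes. A common median lowers all differences alike, enough to turn Psme1 from 0.27 to -0.03, so Jak1 at 0.16 would not stay positive. The mean log2 signals of the 11 ran from 5.90 to 10.31, and no comparison with genes of like signal was made. Over all tested genes 27.3% had groups apart on the higher side and 10.9% an unadjusted p of 0.05 or less. The interferon regulatory factor Irf1, an activator of Psmb8, Psmb9 and Psmb10, read 1257 and 1662 without LIF and 789 and 763 with LIF (log2 difference 0.90, SE 0.22, limma adjusted p = 0.19). The peptide-trimming enzyme Erap1 had a log2 difference of 1.29, the peptide transporter subunit Tap2 of 1.59 and the MHC class I light chain B2m of 0.81, with limma adjusted p = 0.23, 0.28 and 0.33. In the gene order of GRCm38.p6 Tap1 lies between Psmb9 and Psmb8 on chromosome 17, and Tap2 follows Psmb8. Tap1, named here for its place, read 155.1 and 173 without LIF and 72.7 and 81.3 with LIF (log2 difference 1.09). Psmb10 lies on chromosome 8, apart from that cluster.

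**Figure D3:**
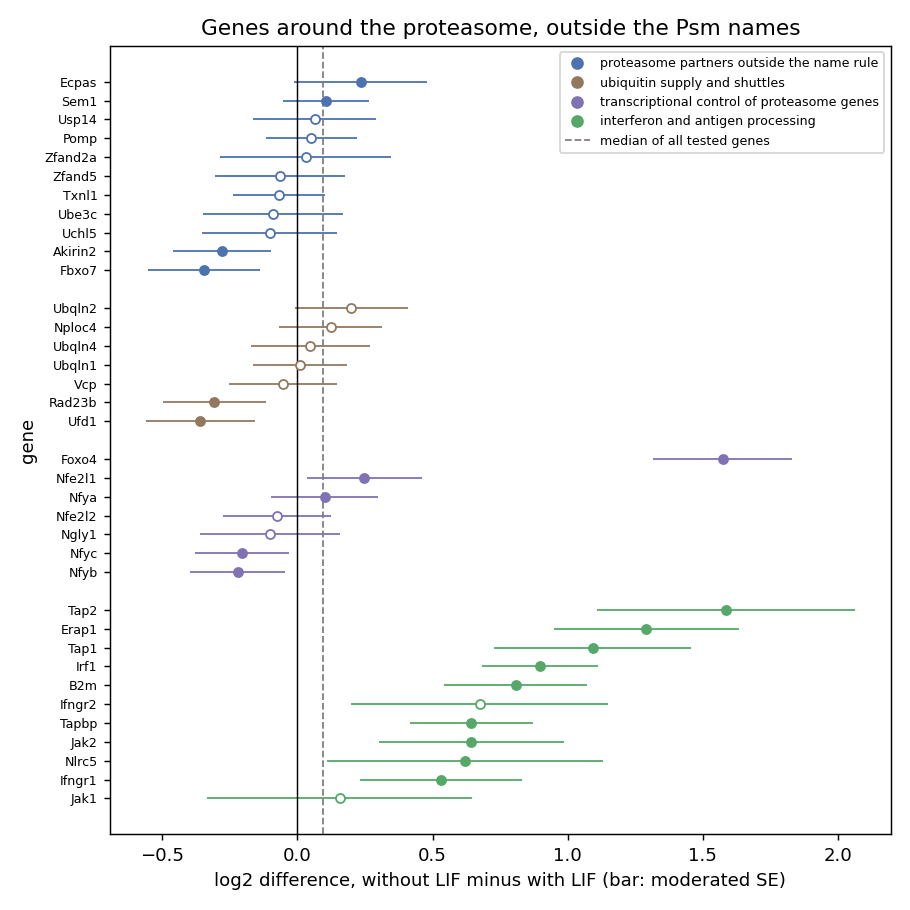
Log2 difference, without LIF minus with LIF, with its moderated SE (bars), of tested genes around the proteasome that do not carry a Psm name, by list; points are filled where groups do not overlap. The interferon and antigen processing genes lie between 0.16 and 1.59, while those of the other lists scatter around 0 except Foxo4 at 1.57.

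The cap subunits with a Psm name had slightly lower signals without LIF. All 17 had a negative log2 difference (16 with quantile normalization, where Psmd2 turned), from -0.48 to -0.06 with a median of -0.20. In 11 of the 17 (64.7%) both arrays without LIF lay below both with LIF. With the mean of probe sets Psmd7 (0.055), Psmd11 (0.21) and Psmd13 (0.12) turned positive. With the brightest plain probe set Psmd11 (0.021) and Psmd13 (0.13) did. None of the 17 passed in limma, and 1 (Psmd7) had an unadjusted p of 0.05 or less. The small cap subunit Sem1, which the name rule leaves out, went the other way. Its log2 difference was 0.11, with groups apart on the higher side. For scale, 40.6% of all tested genes had a negative difference and 15.2% had groups apart on that side. Core and cap genes are bright, with mean log2 signals between 11.55 and 14.06, and bright genes as a whole were shifted the same way. Of the 1495 tested genes in that range 65.8% had a negative difference and 27.6% had groups apart on the lower side, with a median of -0.08.

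The cap median was -0.14 with quantile normalization and -0.50 with a common median, where the medians of all tested genes were 0.02 and -0.20. Under each of these scalings all 17 lay below the median of all tested genes. Against the median of the genes as bright, -0.08 as deposited, Psmd2 (-0.06) lay above. That median was not taken under the other scalings. Dropping array 1 of the cells without LIF left 15 negative differences with a median of -0.12, and dropping their array 2 left 16 with a median of -0.31. Dropping either array with LIF also left 16.

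Psmd7, a lid subunit that holds the deubiquitinase Psmd14 in place, had the largest difference of the cap. It read 4979 and 5169 without LIF and 7083 and 7025 with LIF, means of 5074 ± 134 and 7054 ± 41.4 (SD, n = 2). The arrays without LIF were both well below those with LIF, with a log2 difference of -0.48 (SE 0.16, limma adjusted p = 0.33). Its 2 dim probe sets, near 0 and positive (-0.05 and 0.69), did not separate the groups. Psmd12, another lid subunit, read 7882 and 9597 without LIF and 10174 and 13007 with LIF (log2 difference -0.40, SE 0.20). Psmd14 itself, which cuts the ubiquitin chain from the substrate, read 7548 and 9965 without LIF and 8562 and 10122 with LIF, with overlapping groups. The ubiquitin receptor Psmd4 read 4987 and 5822 without LIF and 6202 and 6200 with LIF (log2 difference -0.20), and its second bright probe set had a log2 difference of -0.34, while a dim probe set had 0.28 with overlapping groups. Psmd13 and Psmd6, both of the lid, had log2 differences of -0.29 and -0.12 with groups apart. Psmd13 read 2560.4 and 2872 without LIF and 3380 and 3254 with LIF, and Psmd6 read 7950.4 and 8642 without LIF and 9061 and 8915 with LIF.

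All 6 ATPases of the cap, the ring of motors that unfolds the substrate, had negative differences, 5 of them with groups apart. Psmc4 read 9926 and 7255 without LIF and 13265 and 9970.3 with LIF (log2 difference -0.44, SE 0.23, limma adjusted p = 0.54). Here the arrays numbered 1 were the brighter ones in both groups, and the groups were only just apart. Psmc2 read 8755 and 10057 without LIF and 10570 and 13379 with LIF (-0.34, SE 0.19), and its second bright probe set was shifted alike, at -0.31. The smallest difference among the ATPases was that of Psmc1, at -0.12, which read 4376 and 4369.7 without LIF and 4827 and 4652 with LIF.

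At the other end of the cap, Psmd2, a scaffold of its base, read 7388 and 9275 without LIF and 8501 and 8790.4 with LIF, a log2 difference of -0.06 with overlapping groups. Psmd11, a lid subunit known from human ES cells to be abundant and to promote assembly of the cap on the core, read 12083 and 7902 without LIF and 14782 and 8121 with LIF. Its signal followed the array number far more than LIF, and its log2 difference was -0.17 (SE 0.32). Foxo4, a transcription factor linked to Psmd11 expression in human ES cells, read 785 and 1117 without LIF and 295 and 335 with LIF (log2 difference 1.57, SE 0.26, limma adjusted p = 0.082) and did not pass.

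**Figure D4:**
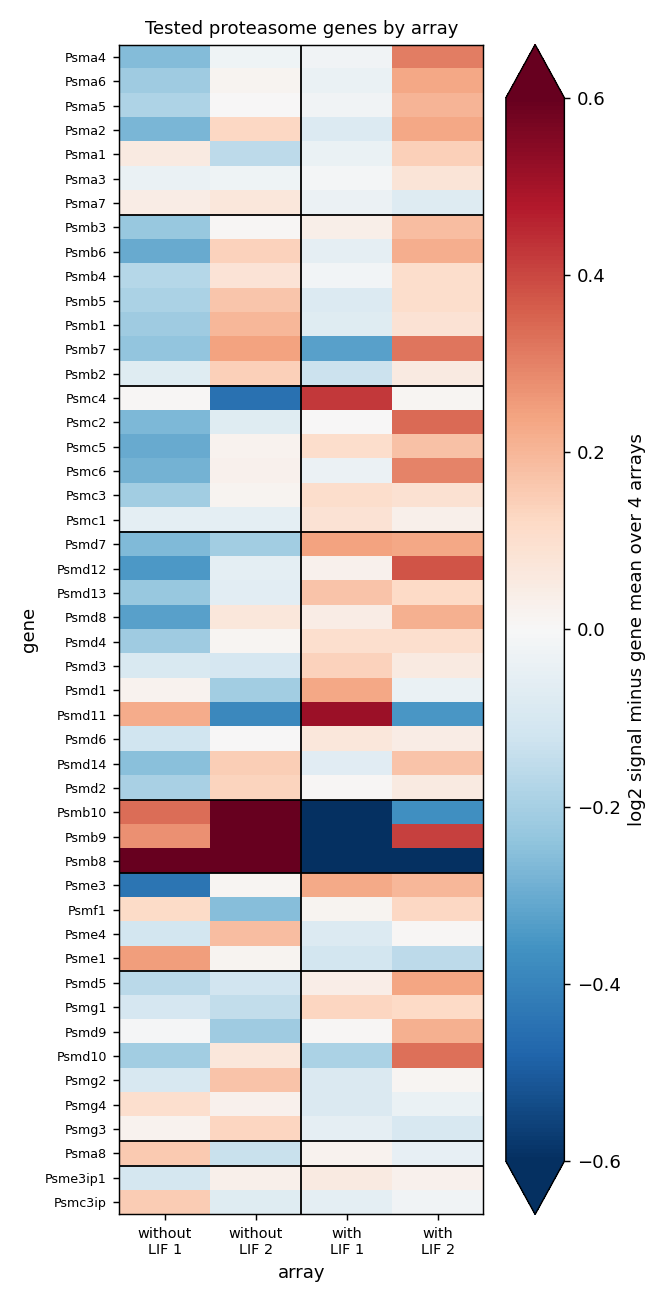
Log2 signal of each tested proteasome gene on each array minus the gene's mean over the 4 arrays (colour, cut at 0.6 in either direction), with horizontal lines between classes and a vertical line between groups. Cap genes such as Psmd7, Psmd3 and Psmc1 are below their mean on both arrays without LIF, most core beta genes follow the array number, and Psmb8 and Psmb10 are above their mean on both arrays without LIF.

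The subunits of the core rings differed less and less uniformly. Of 14 genes 11 had a negative difference, and the median was -0.10, between -0.29 for Psma4 and 0.11 for Psma7. Groups were apart in 3 on the lower side (Psma4, Psmb3 and Psma3, the last positive with quantile normalization) and in 1 on the higher side, Psma7. In the same signal range 65.8% of genes had a negative difference and 27.6% had groups apart on the lower side, so the counts of the core are near those of genes as bright. In limma 0 of the 14 had an unadjusted p of 0.05 or less. With quantile normalization 7 of the 14 were negative and the median was -5.3e-04, and with a common median all 14 were negative with a median of -0.39. Without array 1 of the cells without LIF the median was 0.04, with 6 negative, and without their array 2 it was -0.23. Without array 1 of the cells with LIF it was -0.24, and without their array 2 it was -0.02.

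Psma4, of the alpha ring, read 8029 and 9439 without LIF and 9485 and 11890 with LIF, so the groups were apart by a narrow margin. Psma6, also of the alpha ring, read 12497 and 14636 without LIF and 14086 and 17024 with LIF (log2 difference -0.20), with overlapping groups. Psma3 had the smallest difference of the ring (-0.07), at 13202 and 13368 without LIF and 13461 and 14363 with LIF. Psma1, also with overlapping groups, read 10791 and 9345 without LIF and 10136 and 11485 with LIF (-0.10). Psma7, the member of the ring with a positive difference, read 7306 and 7409 without LIF and 6897 and 6711 with LIF. With a common median its log2 difference was -0.18, close to the shift of all tested genes there. In the beta ring the structural subunit Psmb3 read 8366 and 9822 without LIF and 10036 and 11125 with LIF, a log2 difference of -0.22. Psmb2, another structural subunit, read 4434 and 5144 without LIF and 4263 and 4834 with LIF (0.07, or -0.22 with a common median), with overlapping groups. Psmb1, likewise structural and overlapping, read 7108 and 9454 without LIF and 7843 and 8738 with LIF (-0.01, or 0.07 with quantile normalization). The testis-specific alpha subunit Psma8 read 1057 and 864 without LIF and 961 and 915 with LIF, with a log2 difference of 0.03.

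**Figure D5:**
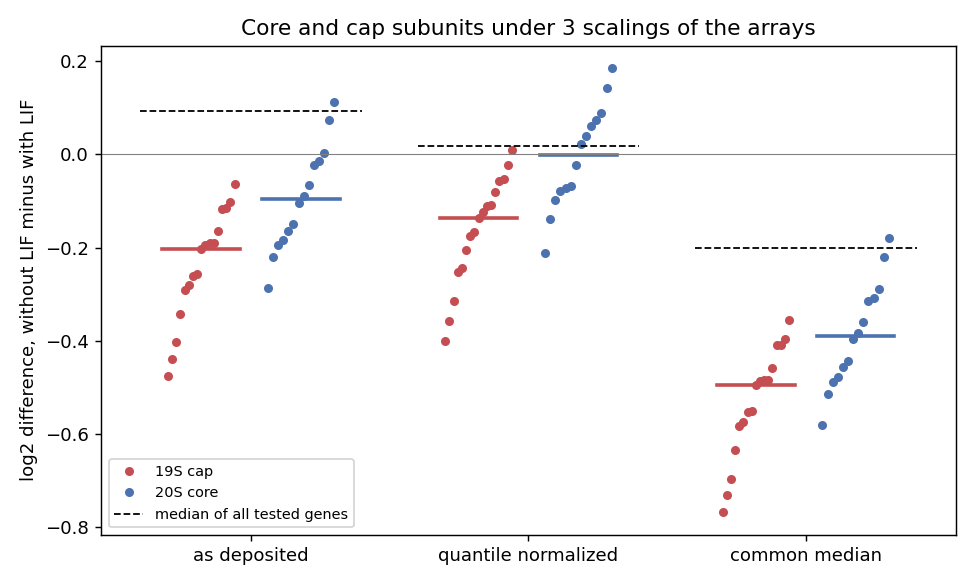
Log2 difference, without LIF minus with LIF, of the cap and core subunits with a Psm name (points; solid lines are their medians) with the arrays as deposited, quantile normalized and scaled to a common median. The dashed line is the median of all tested genes, at 0.09, 0.02 and -0.20; the cap lies below it under each scaling, and the core straddles it with quantile normalization.

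Other regulators of the core went different ways, and the probe sets of a pair of them disagreed. Psme1, a subunit of the interferon-inducible PA28 activator, read 2903 and 2472 without LIF and 2262 and 2194 with LIF (log2 difference 0.27, SE 0.18, limma adjusted p = 0.64). The groups were apart, but the difference was -0.03 with a common median. Psme3, the subunit of the nuclear PA28 activator, read 1302 and 1779.8 without LIF and 2068 and 2029.7 with LIF (-0.43, SE 0.21). Its other bright probe set read 1543 and 2083 without LIF and 1520.1 and 1663 with LIF, a log2 difference of 0.17 in the opposite direction. Psme4, the large activator PA200, read 11397 and 13968 without LIF and 11626 and 12366 with LIF (0.07, or -0.22 with a common median).

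Psmf1, an inhibitor of the core in vitro, read 907 and 703 without LIF and 849 and 912 with LIF by its brightest probe set (log2 difference -0.14). Its 3 dimmer probe sets had differences of 0.35, 0.29 and 0.52 with groups apart, so no direction can be given for this gene. In all, 27 of the 49 genes had more than 1 probe set. Of their 46 further probe sets above the filter, 25 had the sign of the brightest and 21 the opposite sign, and among the 18 with a mean log2 signal of at least 10 these counts were 14 and 4. The 14 genes with an opposite probe set were Psma1, Psma6, Psmb1, Psmc2, Psmc3ip, Psmd4, Psmd6, Psmd7, Psmd11, Psmd13, Psme3, Psmf1, Psmg2 and Psmg3.

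Assembly chaperones differed in both directions. Those of the cap base, Psmd5, Psmd9 and Psmd10, had log2 differences of -0.27, -0.22 and -0.14, the first of them at 2879.8 and 2977 without LIF and 3307 and 3789.6 with LIF. Among the chaperones of the core rings, Psmg1 read 4472 and 4335 without LIF and 5255 and 5215 with LIF (log2 difference -0.25, SE 0.16), with close replicates and groups apart. Its partner Psmg2 read 3464 and 4174 without LIF and 3493 and 3742 with LIF, a log2 difference of 0.07, and Psmg3 and Psmg4 had 0.15 and 0.13 with groups apart, and all 3 were negative with a common median. Psmg3 read 978 and 1053 without LIF and 929.5 and 900.5 with LIF, and Psmg4 read 1342 and 1275 without LIF and 1179 and 1217 with LIF. None of the 7 passed in limma, where the lowest adjusted p among them was 0.61. Psmc3ip, a meiotic recombination factor, and Psme3ip1, which binds the Psme3 product, are not subunits of the proteasome, and their log2 differences were 0.08 and -0.08, with overlapping groups. Psmc3ip read 1999 and 1707 without LIF and 1726 and 1774 with LIF.

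Partners of the proteasome outside the Psm names differed little. Of 11 tested partners 0 passed, 2 had groups apart on the higher side and 2 on the lower, and the median was -0.07. Over all tested genes 27.3% had groups apart on the higher side and 15.2% on the lower, the shares to set beside the counts of this list and of the next ones. The named ones were Fbxo7 (-0.35) and Akirin2 (-0.28), a nuclear import factor of the proteasome, and Ecpas (0.23) and the small cap subunit Sem1 (0.11). The core assembly factor Pomp, which the beta subunits need to mature, read 5967 and 6885 without LIF and 5954 and 6428 with LIF. Of 7 tested genes that supply or shuttle ubiquitinated proteins 0 passed, 0 had groups apart on the higher side and 2 on the lower, Ufd1 (-0.36) and Rad23b (-0.31), while Ubqln2 and Nploc4 had 0.20 and 0.12. Of 7 tested factors that control proteasome genes 0 passed, with 3 apart on the higher side and 2 on the lower. Besides Foxo4 these were Nfyb (-0.22) and Nfyc (-0.21), and Nfe2l1 (0.25), the factor that raises proteasome transcription when the protease is blocked, and Nfya at 0.10.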

How the data were processed

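Total RNA of CGR8 cells was measured on 4 arrays, 2 per group. The authors deposited signal intensities made with MAS5, per the submitters' processing notes. Their linear scale and nearly equal trimmed means per array were read from the values. The MAS5 version is not given in the sources used here. Detection calls were not used here, so a dim value has no call behind it, and the number of arrays limits the precision.

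Of 45101 probe sets, 34945 carried 1 gene symbol in the platform annotation and were used. The 1 value at 0 was raised to the smallest positive value, log2 was taken, and each gene was represented by its brightest probe set. The 14445 genes whose mean log2 exceeded 4.51 (percentile 30 over non-control probe sets) entered a limma 3.58.1 fit in R 4.3.3, with group as sole term and variances moderated by eBayes along their trend with the mean. Its p-values are two-sided and were adjusted by the Benjamini-Hochberg method. Differences have the cells with LIF subtracted, the SE is moderated, and intervals are 95%. No p is given for a class of genes. Figures used matplotlib 3.10.9 and Python 3.11.15. The fit was tested on simulated data.

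The members and lists were chosen with earlier results of these data known. Members named with values were the catalytic subunits, activators, Psmf1, Psmd4, the 2 largest differences in each direction and the smallest in each class, any that passed, and those whose probe sets disagreed; other members named were chosen for their role. Of each other list up to 4 genes with the smallest p were named, others for their role. The range of bright genes set beside core and cap was chosen after the data were seen.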

Additional observations from a re-analysis of the deposited data

How the results depend on the processing

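By limma 0 proteasome genes passed with no filter or a stricter one (percentile 50), an added pseudocount, quantile normalization, an untrended or robust eBayes, other choices of probe set, or an adjusted p of 0.1. Psmb8 was not among the genes tested with the stricter filter, the mean of probe sets or the brightest plain probe set. These settings tested 47, 47 and 41 members and give no result for Psmb8. The 3 genes with an unadjusted p of 0.05 or less are those of the fit described above. With a common median 1 passed (Psmb8), beside 0.332% of all tested genes as higher and 0.575% as lower. Leaving out a single array leaves 1 array in a group. The pass of Psmb10 without array 1 of the cells without LIF, given above, has this limit. It rests on 1 array without LIF and is not counted here. Otherwise only differences are given for those fits. The array number as a replicate block gave 4 (Psmb8, Psmb10, Psmc4 and Psmd7), where 4.13% of all tested genes passed as higher and 2.62% as lower, and the replicate block with quantile normalization gave 2 (Psmb8 and Psmb10), beside 2.8% and 2.19%. The labels do not say that a number marks a shared culture, so this block rests on a number alone. Over tested genes arrays of like number correlated at 0.952 and 0.953 across groups, and those of unlike number across groups at 0.946 and 0.932. Within groups the correlation was 0.948 without LIF and 0.962 with LIF. A common median moved the core median to -0.39 and the cap median to -0.50. With single arrays left out the core median ran from -0.24 to 0.04, the cap median from -0.31 to -0.12 and the immunoproteasome median from 0.84 to 2.00. Of 34 members followed, 15 kept their sign under all alternatives run. The sign turned with quantile normalization, with and without the block, for Psma3 (0.041), Psmb1 (0.074), Psmb5 (0.061) and Psmd2 (0.011). It turned with a common median for Psma7 (-0.18), Psmb2 (-0.22), Psmb7 (-0.29), Psmc3ip (-0.22), Psme1 (-0.027), Psme4 (-0.22), Psmg2 (-0.22), Psmg3 (-0.14) and Psmg4 (-0.17). With the mean of probe sets it turned for Psma1 (0.18), Psmb1 (0.27), Psmd7 (0.055), Psmd11 (0.21), Psmd13 (0.12), Psmf1 (0.25) and Psmg3 (-0.76), and with the brightest plain probe set for Psmb1 (0.27), Psmc3ip (-0.010), Psmd11 (0.021), Psmd13 (0.13) and Psmg2 (-0.033). With single arrays left out, ranges that crossed 0 were -0.21 to 1.8e-04 for Psma1, -0.22 to 0.19 for Psmb1, -0.034 to 0.18 for Psmb2, -0.20 to 0.16 for Psmb5, -0.38 to 0.057 for Psmb6, -0.32 to 0.33 for Psmb7, -0.036 to 0.19 for Psmc3ip, -0.60 to 0.27 for Psmd11, -0.23 to 0.10 for Psmd2, -0.073 to 0.22 for Psme4, -0.32 to 0.043 for Psmf1 and -0.062 to 0.21 for Psmg2. The causes were not tested. Detection calls were not used here, so the lowest signals, such as Psmb8 with LIF, carry no measure of signal over background.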
